A study of Mus musculus with 6 samples.

Results

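Antioxidant, glutathione and thioredoxin genes were described in pancreatic islets of mice labelled male, all 10 weeks old and fasted for 12 h. The TG mice carried a transgene for the microRNA miR-203, directed to beta cells, the insulin-secreting cells of the islet. The WT mice were wild type, with no other allele or agent named. The 32 members were chosen by gene name in the annotated tables of the deposited data and followed through 3 TG and 3 WT messenger RNA libraries. All 32 were found, out of 47643 genes in the count tables. The labels do not give the promoter of the transgene or any pooling of animals. Nor do they say whether each library had its own animal, so p-values measure only how these samples spread, which may be technical.

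Cells remove reactive oxygen in steps. Superoxide dismutases turn superoxide into hydrogen peroxide, which catalase, glutathione peroxidases and peroxiredoxins then reduce. Glutathione and thioredoxin supply the electrons and are recharged by reductases that use NADPH. The transcription factor NRF2, encoded by Nfe2l2 and held in check by KEAP1, drives many of these genes through a short DNA motif, the antioxidant response element. Rodent beta cells are known for low catalase and low glutathione peroxidase, and for a strong dependence of Txnip on glucose.

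The libraries held 20176456 to 27482339 counts each. TG 1, TG 2, WT 1 and WT 2 shared the first deposited table and TG 3 and WT 3 the second, and the table was a term of the tests unless stated. The Mir203 locus, which checks the genotype labels, had 170, 164 and 150 counts in TG 1, TG 2 and TG 3, and 39, 0 and 0 in WT 1, WT 2 and WT 3, so the library labelled WT 1 also carried reads there. Although every mouse was labelled male, the X-inactivation transcript Xist had 27240 counts in TG 3 and 25145 in WT 3, against 4 to 13 in the libraries of the first table. The counts of 4 Y-linked genes summed to 1 in TG 3 and 16 in WT 3, against 5463 to 7468 in the first table, so the libraries of the second table went against the label. Differences between the 2 tables therefore cannot be told apart from differences of apparent sex. CPM here are counts scaled to the library size after TMM, which evens out composition. The 8 beta-cell markers, insulin genes included, summed to 30717 CPM in TG 1, 166914 in TG 2 and 34991 in TG 3, against 181839 in WT 1, 193379 in WT 2 and 94793 in WT 3. By this sum, TG 2 lay nearer to WT than TG 1 and TG 3 did. Over 13065 genes, TG 2 was also closer to every WT library than to TG 1 or TG 3, by chi-square per degree of freedom. Of the 8 markers, 7 were lower and 1 higher in TG, and 0 passed an adjusted p under 0.05 in edgeR. In such bulk samples, fewer cells of a type and less RNA per cell cannot be told apart.

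The levels of the members were set against each other as deposited FPKM, which are scaled by gene length. Sod1, the copper-zinc superoxide dismutase of the cytosol, had the highest mean, at 464 FPKM in TG 1, 499 in TG 2 and 485 in TG 3, against 441 in WT 1, 549 in WT 2 and 437 in WT 3. The genotypes overlapped. Gpx3, a secreted glutathione peroxidase, came second, with 593 FPKM in TG 1, 262 in TG 2 and 522 in TG 3, against 155 in WT 1, 244 in WT 2 and 304 in WT 3, and stood above Sod1 in TG 1 and TG 3. Txn1 (thioredoxin), Gpx2 and Gpx4 completed the 5 most abundant members, with overlapping ranges that set them in no firm order. At the low end, Cat, which encodes catalase, had 3.86 FPKM in TG 1, 2.20 in TG 2 and 4.15 in TG 3, against 2.82 in WT 1, 5.21 in WT 2 and 4.54 in WT 3. In the WT libraries of the first table its level lay at percentile 49.1 of the genes tested, against percentile 99.6 for Sod1. Slc7a11, the cystine importer, with 0.391 to 1.70 FPKM, and Sod3, the extracellular dismutase, with 0.233 to 0.673 FPKM, were lowest. All 32 members passed the filter on low counts, and the smallest count of any of them was 23, for Sod3 in TG 2.

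**Figure D1:**
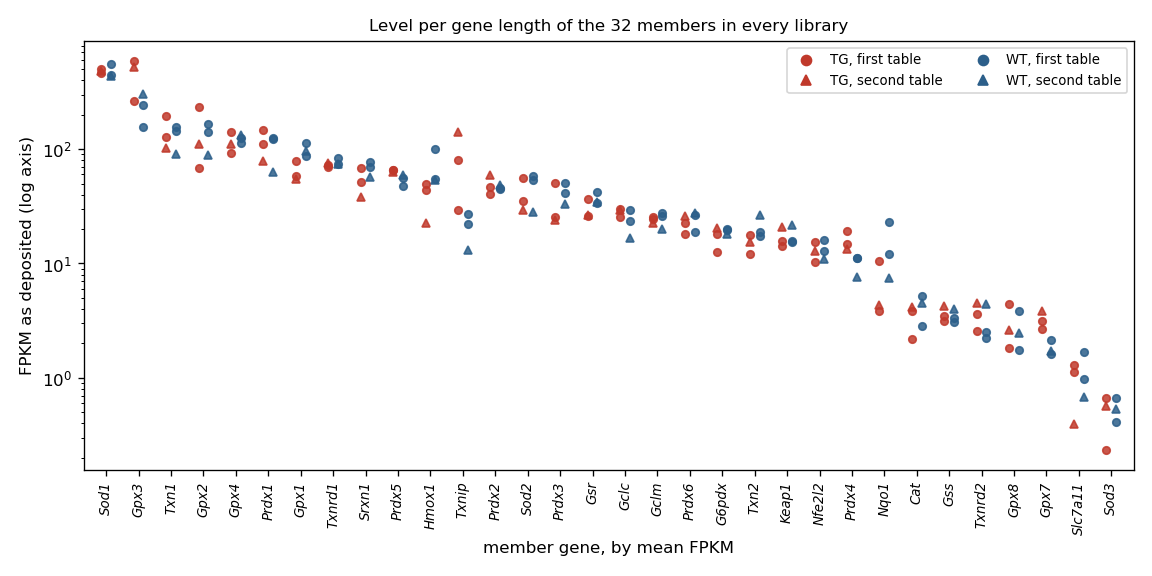
Deposited FPKM (log axis) of each of the 32 members in every library, TG in red beside WT in blue, circles for the first table and triangles for the second. Sod1 and Gpx3 lie at the top and Slc7a11 and Sod3 at the bottom.

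Between the genotypes, 0 members passed an adjusted p under 0.05 (edgeR quasi-likelihood test, Benjamini-Hochberg over 16072 genes), where the background over all genes was 0.0%. At an unadjusted p under 0.05 in edgeR, 4 members were higher in TG, which is 12.5% of the members beside 9.32% of all genes. These were Txnip, Gpx3, Gpx7 and Prdx4. A further 3, Nqo1, Hmox1 and Gpx1, were lower in TG, which is 9.38% beside 4.81% of all genes. All TG libraries stood above their own table's WT libraries for 6 members (18.8%, beside 13.0% of all genes) and below them for 4 members (12.5%, beside 13.4%). Of the 32 members, 14 were higher and 18 lower in TG, with a median log2 fold change (TG over WT) of -0.04, beside -0.01 over all genes tested. The median size of the change without its sign was 0.224 among the members and 0.225 over all genes tested. The members' shares thus stood above the background by unadjusted p, a matter of a few genes, and on both sides of it by the WT range. The members were chosen with earlier results of these data known, so a share above the background is not independent of that choice.

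The calls depended on TG 2 and on the test. Without TG 2, edgeR called 3 members higher, Txnip, Gpx3 and Prdx4 (background 8.82%), and 4 lower, Gpx1, Txn2, Srxn1 and Prdx3 (background 4.39%). With all 6 libraries, DESeq2 called Gpx3 and Prdx4 higher (background 3.83%) and Hmox1 lower (background 0.846%). Without the filter on low counts, edgeR called 3 higher, Txnip, Gpx3 and Prdx4 (background 4.37%), and 3 lower, Nqo1, Hmox1 and Gpx1 (background 1.25%). Those 6 calls were lost when the same unfiltered counts went through bias-adjusted edgeR, where 0 members passed. There, 7 of the 32 members had an unadjusted p under 0.05, beside 3006 of all 29725 genes.

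**Figure D2:**
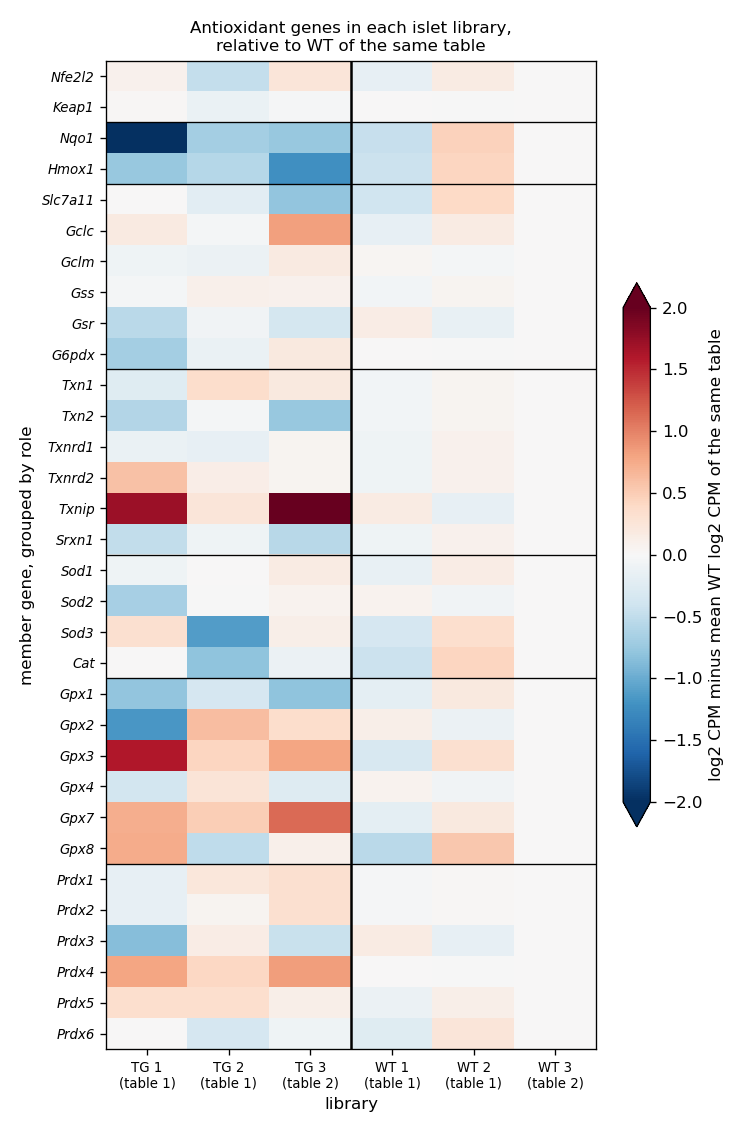
Log2 CPM of each member (rows, grouped by role) in each library (columns, TG left of WT), minus the mean WT value of the same table, red above and blue below; WT 3 is the lone WT library of its table and is 0 by construction. Txnip, Gpx3, Gpx7 and Prdx4 are red and Nqo1, Hmox1 and Gpx1 blue in all 3 TG columns, and Txnip is palest in TG 2.

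The regulators of the pathway had log2 fold changes near 0. Nfe2l2 had 60.8 CPM in TG 1, 41.2 in TG 2 and 44.6 in TG 3, against 51.1 in WT 1, 63.8 in WT 2 and 37.7 in WT 3. Its groups overlapped, with a log2 fold change of -0.03 (SE 0.20). Keap1, the adaptor that marks NRF2 for breakdown, had 77.6 CPM in TG 1, 69.7 in TG 2 and 89.6 in TG 3, against 76.6 in WT 1, 76.0 in WT 2 and 91.3 in WT 3. Its log2 fold change was -0.04 (SE 0.12), and the adjusted p in edgeR was 0.899 for Keap1 and 0.956 for Nfe2l2. Without TG 2 the Nfe2l2 value was 0.15, above 0. A transcript level does not measure NRF2 activity, which is set largely by protein turnover.

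Nqo1 and Hmox1, long-used markers of NRF2 activity, were lower in TG within both tables. Nqo1, a quinone reductase (chr8:107388225-107403206, minus strand, GRCm38), had 6.19 CPM in TG 1, 17.0 in TG 2 and 6.19 in TG 3, against 19.8 in WT 1, 37.4 in WT 2 and 10.6 in WT 3. TG 1 lay farthest below its WT libraries, and the groups overlapped across tables, since TG 2 was above WT 3. Nqo1 had a TG mean of 9.80 ± 6.26 CPM and a WT mean of 22.6 ± 13.6 CPM (SD, n = 3 each). Its log2 fold change was -1.13 (SE 0.42), with an adjusted p of 0.304 in edgeR, and it lay between -1.59 and -0.76 with each library left out in turn.

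Hmox1, which breaks down heme and is also high in macrophages (chr8:75093591-75100596, plus strand), had 99.8 CPM in TG 1, 113 in TG 2 and 44.4 in TG 3, against 125 in WT 1, 228 in WT 2 and 105 in WT 3. Both TG libraries of the first table stood close to WT 1, and WT 2 stood apart. Hmox1 had a log2 fold change of -0.89 (SE 0.25), with an adjusted p of 0.234 in edgeR and 0.0285 in DESeq2. The difference in log2 CPM was -0.66 in the first table and -1.23 in the second. WT 2, highest for Hmox1, was also highest for the sum of 7 macrophage and monocyte markers, which was 75.8 CPM in TG 1, 31.5 in TG 2 and 37.2 in TG 3, against 30.2 in WT 1, 105 in WT 2 and 33.8 in WT 3. None of the 7 was at 0 in all libraries, and their part in the Hmox1 values was not tested.

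Genes that make and recharge glutathione showed no shared direction, with 2 of 6 higher and 4 lower, log2 fold changes between -0.35 and 0.31, and 0 at an unadjusted p under 0.05 in edgeR. Gclc, the catalytic subunit of the rate-limiting enzyme of glutathione synthesis, had 107 CPM in TG 1, 91.9 in TG 2 and 92.2 in TG 3, against 84.0 in WT 1, 106 in WT 2 and 52.2 in WT 3. The gap lay in the second table, where the log2 difference was 0.82, against 0.07 in the first. Gclm, its modifier subunit, had 167 CPM in TG 1, 163 in TG 2 and 129 in TG 3, against 182 in WT 1, 172 in WT 2 and 114 in WT 3. The Gclm groups overlapped, with a log2 fold change of -0.01 (SE 0.13). Slc7a11, which brings in cystine for the pathway, had 19.0 CPM in TG 1, 16.3 in TG 2 and 4.98 in TG 3, against 14.4 in WT 1, 24.8 in WT 2 and 8.62 in WT 3. Both genotypes were lower in the second table, and the log2 fold change was -0.35 (SE 0.26). Gss (glutathione synthetase) had one of 0.05, Gsr (glutathione reductase) of -0.31, and G6pdx, the X-linked NADPH-producing enzyme, of -0.19. Gss and G6pdx overlap Acss2 and Ikbkg on the opposite strand, and without a stated strand setting their counts are uncertain.

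Txnip had the largest log2 fold change of the 32 members. It encodes the thioredoxin-interacting protein, which binds and inhibits thioredoxin and is induced by glucose in beta cells (chr3:96557957-96561883, plus strand). The gene had 264 CPM in TG 1, 95.5 in TG 2 and 401 in TG 3, against 89.9 in WT 1, 71.9 in WT 2 and 37.0 in WT 3. Every TG library was above every WT library, TG 2 by the least. Txnip had a TG mean of 254 ± 153 CPM and a WT mean of 66.3 ± 26.9 CPM (SD, n = 3 each). A log2 fold change of 1.88 (SE 0.58), or 3.68-fold, gave an adjusted p of 0.249 in edgeR. The log2 difference was 0.98 in the first table and 3.43 in the second. Txnip was the 1 member with an unadjusted p under 0.05 for an effect that differs between tables, at 0.0321, beside 2.28% of all genes (edgeR interaction). None passed after adjustment (0.0% of all genes), and the adjusted p of Txnip was 0.9999. Without TG 2 its log2 fold change was 2.47, with an adjusted p of 0.00944 in edgeR, and without TG 3 it was 1.15. TG 1 and TG 3, with the highest Txnip, were also the libraries with the lowest summed beta-cell markers. WT 3, with the next lowest sum, had the lowest Txnip. The part of cell composition in the Txnip values was not tested.

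The proximal promoter of Txnip is shown because its carbohydrate response element is the textbook route by which glucose acts on this gene. The RefSeq window (GRCm38.p6, chr3:96557707-96558006, plus strand) runs from 250 bases before to 50 bases after the gene's start. Capitals mark a pair of CACGNG motifs that lie 5 bases apart and begin 85 bases before the start.
Txnip promoter: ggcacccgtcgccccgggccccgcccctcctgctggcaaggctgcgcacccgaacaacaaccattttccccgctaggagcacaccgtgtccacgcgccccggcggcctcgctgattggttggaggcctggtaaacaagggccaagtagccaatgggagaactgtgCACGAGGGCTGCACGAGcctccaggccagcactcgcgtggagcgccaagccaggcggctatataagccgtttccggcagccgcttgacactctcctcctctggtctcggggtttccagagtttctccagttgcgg
Read on both strands, this pair occurred in 16 of 32851 promoters (0.0487%), and Txnip was the 1 member with it. A match describes the letters, and binding was not measured.

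The other genes of the thioredoxin system differed less. Txn1, the cytosolic thioredoxin, had 139 CPM in TG 1, 212 in TG 2 and 98.7 in TG 3, against 158 in WT 1, 173 in WT 2 and 86.0 in WT 3. Its log2 fold change of 0.12 (SE 0.18) turned to -0.06 without TG 2. Srxn1, sulfiredoxin, which repairs over-oxidized peroxiredoxins, had 154 CPM in TG 1, 203 in TG 2 and 98.7 in TG 3, against 205 in WT 1, 229 in WT 2 and 145 in WT 3. TG 1 and TG 2 were below WT 1 and WT 2, and TG 3 was below WT 3. The Srxn1 log2 fold change was -0.37 (SE 0.17), with an adjusted p in edgeR of 0.368 from all libraries and 0.0454 without TG 2. Txn2, the mitochondrial thioredoxin, had a log2 fold change of -0.44 (SE 0.19) from all libraries (adjusted p = 0.361 in edgeR) and of -0.67 without TG 2 (adjusted p = 0.0178 in edgeR). Txnrd1, the cytosolic thioredoxin reductase, had a TG mean of 248 ± 10.4 CPM and a WT mean of 264 ± 35.4 CPM (SD, n = 3 each). Txnrd2, the mitochondrial reductase, had 16.5 CPM in TG 1, 11.9 in TG 2 and 18.3 in TG 3, against 10.3 in WT 1, 11.6 in WT 2 and 17.7 in WT 3. TG was above WT within both tables, TG 1 by the most. The counts of Txnrd2 are uncertain without a stated strand setting.

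The antioxidant response element was looked for in the same promoter windows, which were held for 27 of the 32 members. Hmox1, Gclc, Gsr, Sod3 and Prdx6 had no window. Its core was read as TGACNNNGC or TGAGNNNGC on both strands, so that a match on the other strand starts with GC in the sequences shown. The core was present in 9 of 32 windows of the members, or 28.1%. Beside this stood 27.8% of all 32851 promoters and 31.0% of the 14418 promoters of genes tested. Srxn1 held 3 matches. Its window (chr2:152105274-152105573, plus strand) is shown because sulfiredoxin is a textbook NRF2 target that was lower in TG within both tables. Stretches of Prdx1 (chr4:116685456-116685484, plus strand), Txnrd1 (chr10:82859104-82859132, plus strand) and G6pdx (chrX:74428919-74428947, minus strand) stand beside it, each in its gene's direction with the match in capitals.
Srxn1 promoter: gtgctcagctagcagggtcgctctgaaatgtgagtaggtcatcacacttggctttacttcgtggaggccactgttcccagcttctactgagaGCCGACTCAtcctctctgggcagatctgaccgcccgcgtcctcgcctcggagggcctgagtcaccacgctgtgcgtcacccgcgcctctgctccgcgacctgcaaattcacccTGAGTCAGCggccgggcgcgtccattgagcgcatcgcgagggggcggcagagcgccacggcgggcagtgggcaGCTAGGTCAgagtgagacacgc
Prdx1 stretch: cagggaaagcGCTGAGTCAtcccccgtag
Txnrd1 stretch: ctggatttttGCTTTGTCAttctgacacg
G6pdx stretch: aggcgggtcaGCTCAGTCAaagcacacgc
The log2 fold change was -0.37 (SE 0.17) for Srxn1, 0.14 (SE 0.17) for Prdx1, -0.08 (SE 0.14) for Txnrd1 and -0.19 (SE 0.20) for G6pdx, beside 7 lower and 2 higher among all 9 members with a match. Prdx1 and Sod1, the 2 above 0, lay within 1 SE of it. Nqo1 had no match, which says only that these letters are not in its 300 bases.

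**Figure D3:**
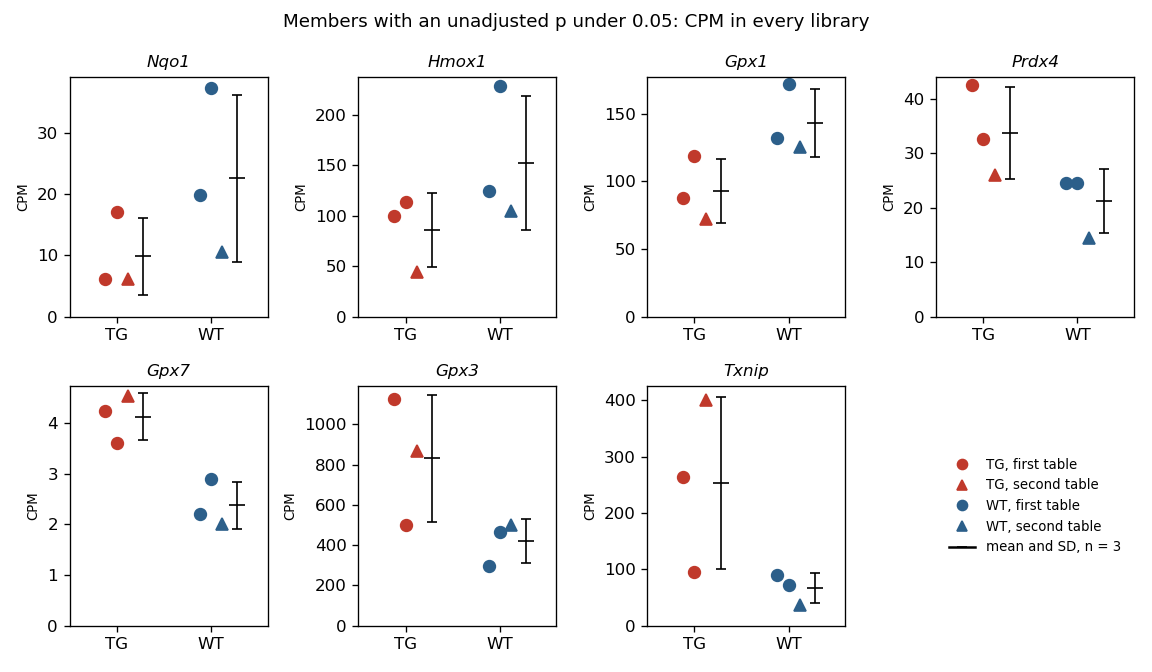
CPM (vertical axes from 0) of the 7 members with an unadjusted p under 0.05 in each TG and WT library, circles for the first table and triangles for the second; the black bar is the mean with its SD (n = 3). Gpx1, Prdx4, Gpx7 and Txnip have no TG library within the WT range, while Nqo1, Hmox1 and Gpx3 overlap across tables.

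The superoxide dismutases and catalase had no member at an unadjusted p under 0.05 in edgeR. Sod1 had 314 CPM in TG 1, 338 in TG 2 and 287 in TG 3, against 300.3 in WT 1, 373 in WT 2 and 256 in WT 3. The groups overlapped, with a log2 fold change of 0.02 (SE 0.16). Sod2, the manganese enzyme of mitochondria, had a TG mean of 156 ± 61.7 CPM and a WT mean of 182 ± 74.2 CPM (SD, n = 3 each), and was lowest in the second table in both genotypes. Sod2 had a log2 fold change of -0.18 (SE 0.20), Sod3 of -0.14 (SE 0.45) and Cat of -0.31 (SE 0.32). The sign of each of these 4 genes turned under at least 1 alternative.

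The glutathione peroxidases lay on both sides of WT. Gpx1, the abundant cytosolic form (chr9:108338903-108340343, plus strand), had 87.3 CPM in TG 1, 119 in TG 2 and 71.9 in TG 3, against 132 in WT 1, 172 in WT 2 and 126 in WT 3. Every TG library was below every WT library. Gpx1 had a TG mean of 92.6 ± 23.8 CPM and a WT mean of 143 ± 25.1 CPM (SD, n = 3 each). Its log2 fold change was -0.64 (SE 0.18), and the adjusted p in edgeR was 0.238 from all libraries and 0.0189 without TG 2. The log2 difference was -0.56 in the first table and -0.80 in the second.

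Gpx3, the secreted form also found in blood plasma (chr11:54902453-54910377, plus strand), had 1127 CPM in TG 1, 498 in TG 2 and 867 in TG 3, against 296 in WT 1, 464 in WT 2 and 500.5 in WT 3. TG 2 lay above WT 2 but just below WT 3, so the groups overlapped across tables and not within them. Gpx3 had a TG mean of 831 ± 316 CPM and a WT mean of 420.3 ± 109 CPM (SD, n = 3 each). Its log2 fold change was 0.99 (SE 0.34), with an adjusted p of 0.277 in edgeR and 0.0478 in DESeq2. It was 1.24 without TG 2 (adjusted p = 0.0255 in edgeR) and 0.56 without TG 1.

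Gpx7, a peroxidase of the endoplasmic reticulum that helps form disulfide bonds (chr4:108400390-108406961, minus strand), had 4.24 CPM in TG 1, 3.61 in TG 2 and 4.52 in TG 3, against 2.21 in WT 1, 2.90 in WT 2 and 2.01 in WT 3. The groups did not overlap, but the counts were small, at 91 to 122 in TG and 41 to 66 in WT. Gpx7 had a log2 fold change of 0.80 (SE 0.27), with an adjusted p of 0.282 in edgeR. Gpx2, an epithelial form, had 76.2 CPM in TG 1, 262 in TG 2 and 109 in TG 3, against 185 in WT 1, 158 in WT 2 and 85.4 in WT 3. TG libraries lay on both sides of WT, and the log2 fold change was 0.10 (SE 0.41). Gpx2 overlaps Fntb on the opposite strand and is uncertain. Gpx4, which reduces lipid peroxides, had 166 CPM in TG 1, 256 in TG 2 and 175 in TG 3, against 225 in WT 1, 204 in WT 2 and 208 in WT 3. Its groups overlapped, with a log2 fold change of -0.10 (SE 0.20). Gpx8, another peroxidase of the endoplasmic reticulum, had one of 0.14 (SE 0.44).

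Prdx4 had the smallest p of the members, and every TG library was above every WT library. It encodes the peroxiredoxin of the endoplasmic reticulum, which turns hydrogen peroxide into disulfide bonds for folding proteins (chrX:155323918-155340754, minus strand). The gene had 42.6 CPM in TG 1, 32.7 in TG 2 and 25.9 in TG 3, against 24.6 in WT 1, 24.6 in WT 2 and 14.4 in WT 3. Prdx4 had a TG mean of 33.7 ± 8.38 CPM and a WT mean of 21.2 ± 5.87 CPM (SD, n = 3 each). Its log2 fold change was 0.69 (SE 0.15), or 1.61-fold, with a log2 difference of 0.60 in the first table and 0.84 in the second. The adjusted p was 0.199 in edgeR, 0.0109 in DESeq2 and 0.00927 in edgeR without TG 2. It was 0.398 to 0.924 in edgeR with any other library left out. With each library left out in turn, the log2 fold change stayed between 0.60 and 0.81. Prdx4 is also high in acinar cells, which secrete digestive enzymes. The 8 acinar markers found, of which 6 were higher and 2 lower in TG and 0 had an unadjusted p under 0.05 in edgeR, summed to 3153 CPM in TG 1, 4327 in TG 2 and 253 in TG 3, against 2824 in WT 1, 6111 in WT 2 and 98.7 in WT 3. WT 2 had the highest acinar sum with a Prdx4 level close to that of WT 1, while TG 3 and WT 3, with the lowest acinar sums, had the lowest Prdx4 of their genotypes. With the acinar share as a covariate, the Prdx4 log2 fold change was 0.67, with an adjusted p of 0.484 in edgeR. That share was 0.259% to 0.564% of counts in the first table and 0.0107% to 0.0281% in the second. It varied mainly with the table, already a term, so this fit says little about acinar content. The part of acinar cells in the Prdx4 values was not tested.

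Of the other peroxiredoxins, Prdx5, found in mitochondria and peroxisomes, had 146 CPM in TG 1, 146 in TG 2 and 124 in TG 3, against 107 in WT 1, 126 in WT 2 and 114 in WT 3. TG was above WT within both tables, and the log2 fold change was 0.26 (SE 0.13), with an adjusted p of 0.434 in edgeR. Prdx5 overlaps Trmt112 on the opposite strand and is uncertain. Prdx3, the mitochondrial peroxiredoxin, had 39.4 CPM in TG 1, 78.8 in TG 2 and 32.8 in TG 3, against 79.5 in WT 1, 63.6 in WT 2 and 44.6 in WT 3. TG 2 was among the highest, and without it the log2 fold change was -0.69 (adjusted p = 0.0408 in edgeR), beside -0.33 from all libraries. Prdx1, Prdx2 and Prdx6, of the cytosol, had log2 fold changes of 0.14, 0.07 and -0.15. Prdx2 overlaps Rnaseh2a on the opposite strand and is uncertain.

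**Figure D4:**
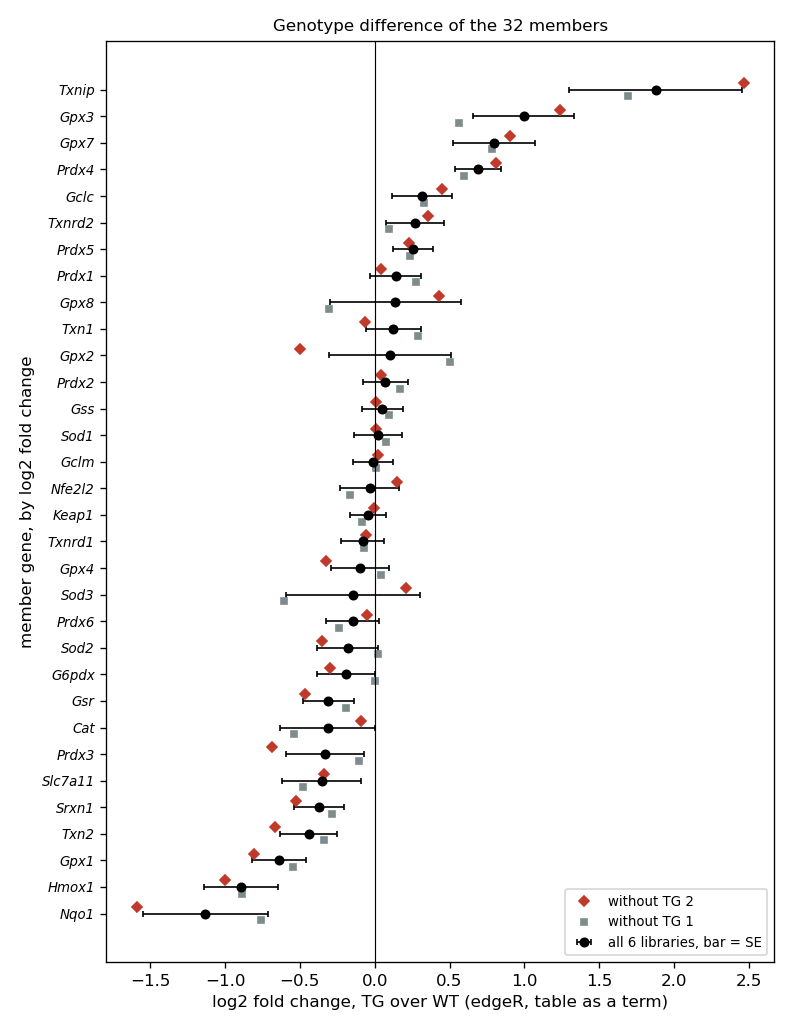
Log2 fold change, TG over WT, of each member from edgeR with all 6 libraries (with SE bars), without TG 2 and without TG 1. Txnip lies at 1.88 and Nqo1 at -1.13 with all libraries, and leaving out TG 2 moves all 7 members with an unadjusted p under 0.05 farther from 0.

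Matches to the microRNA of the transgene were looked for in the members. Mature miR-203-3p (chr12:112130927-112130948, plus strand, RefSeq, GRCm38.p6) is shown with its seed, bases 2 to 8, in capitals. The longest annotated 3′ UTR of each member (GENCODE M21, GRCm38) was searched on its sense strand for CATTTCA, which pairs with the seed, and 3 of 32 members held a match. The Sod2 site lies beyond the gene's end in the deposited annotation.
miR-203-3p: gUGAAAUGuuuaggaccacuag
Gclc site (chr9:77794058-77794064, plus strand): taacagccattCATTTCAttccagactttc
Slc7a11 site (chr3:50365102-50365108, minus strand): ttgttgaattaCATTTCAtttgcggagctg
Sod2 site (chr17:13018859-13018865, plus strand): gatacatgccaCATTTCAatagctcaggca
The share was 9.38% of the members, whose median 3′ UTR was 736.5 bases long, beside 17.3% of 13488 genes tested, with a median of 1182 bases. The log2 fold change was 0.31 (SE 0.20) for Gclc, -0.35 (SE 0.26) for Slc7a11 and -0.18 (SE 0.20) for Sod2. None of the 7 members with an unadjusted p under 0.05 held a match. Binding was not measured.

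Other genes of the pathway, in lists of their own, were mixed as well, and 0 of them passed in edgeR. These lists too were chosen with earlier results of these data known, which limits any comparison of their shares with all genes. Of 27 NRF2-linked and redox genes, 10 were higher and 17 lower in TG, with a median log2 fold change of -0.08. An unadjusted p under 0.05 was reached by 3 higher (11.1%, beside 9.32% of all genes) and 1 lower (3.70%, beside 4.81%). Bach2, a repressor that competes for the antioxidant response element, had a TG mean of 2.76 ± 1.01 CPM and a WT mean of 0.900 ± 0.295 CPM (SD, n = 3 each). Maff, a small MAF partner of NRF2, had a TG mean of 73.3 ± 32.3 CPM and a WT mean of 41.7 ± 5.39 CPM (SD, n = 3 each). Sesn3, a sestrin, had a TG mean of 119 ± 15.8 CPM and a WT mean of 163 ± 28.6 CPM (SD, n = 3 each). The log2 fold change was 1.62 (SE 0.42) for Bach2, 0.80 (SE 0.27) for Maff and -0.45 (SE 0.13) for Sesn3, and the adjusted p in edgeR was 0.222, 0.272 and 0.234.

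Of 26 genes of glutathione transfer, turnover and export, 13 were higher and 13 lower, and an unadjusted p under 0.05 was reached by 2 higher (7.69%, beside 9.32% of all genes) and 3 lower (11.5%, beside 4.81%). The mu-class transferases, which attach glutathione to foreign compounds, parted. Gstm1 had 70.6 CPM in TG 1, 61.8 in TG 2 and 109.8 in TG 3, against 109 in WT 1, 214 in WT 2 and 158 in WT 3. Gstm2 had 4.52 CPM in TG 1, 19.1 in TG 2 and 3.45 in TG 3, against 27.96 in WT 1, 33.8 in WT 2 and 23.7 in WT 3. TG was below WT within both tables for these genes, and for Gstm2 no TG library reached the WT range. Gstm5 had a TG mean of 25.3 ± 3.38 CPM and a WT mean of 16.4 ± 3.68 CPM (SD, n = 3 each) and was higher in every TG library than in any WT library. The log2 fold change was -1.04 (SE 0.29) for Gstm1, -1.82 (SE 0.55) for Gstm2 and 0.64 (SE 0.19) for Gstm5, and the adjusted p in edgeR was 0.234, 0.246 and 0.245. These genes are close relatives, and reads may be shared among them.

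Of 12 NADPH-producing enzymes, 4 were higher and 8 lower, with a median log2 fold change of -0.18. An unadjusted p under 0.05 was reached by 1 higher (8.33%, beside 9.32% of all genes) and 3 lower (25%, beside 4.81%). Mthfd1, a cytosolic folate enzyme, had 46.5 CPM in TG 1, 78.2 in TG 2 and 64.0 in TG 3, against 104 in WT 1, 116 in WT 2 and 145 in WT 3. The groups did not overlap, and the log2 fold change was -0.94 (SE 0.22), with an adjusted p of 0.199 in edgeR and 0.00932 in DESeq2. Me3, the mitochondrial malic enzyme, had a log2 fold change of 1.80 (SE 0.48), and Nnt, the mitochondrial transhydrogenase, one of -0.50 (SE 0.17).

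Of 15 genes of heme, iron and quinone handling, 3 were higher and 12 lower, and an unadjusted p under 0.05 was reached by 1 higher (6.67%, beside 9.32% of all genes) and 4 lower (26.7%, beside 4.81%). Their median log2 fold change was -0.28. Ftl1, the ferritin light chain, an iron store and NRF2 target, had 701 CPM in TG 1, 1084 in TG 2 and 715 in TG 3, against 1333 in WT 1, 1939 in WT 2 and 1819.7 in WT 3. Every TG library was below every WT library, and the log2 fold change was -1.03 (SE 0.26), with an adjusted p of 0.222 in edgeR and 0.00527 in DESeq2. Ephx1, the microsomal epoxide hydrolase, had a log2 fold change of -0.75 (SE 0.17), and Slc11a2, an iron transporter, one of -0.87 (SE 0.23). DESeq2 called both of these lower as well.

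The summed markers of some other cell types differed between the libraries, although 0 of these markers passed in edgeR. At an unadjusted p under 0.05 there, in either direction, stood 14.1% of all genes. So did 4 of 7 duct, 3 of 5 delta- and PP-cell, 3 of 8 stellate-cell, 3 of 4 Schwann-cell and 4 of 8 beta-cell markers tested. The remaining cell types had 0 to 2 such markers. Among them, all 6 alpha-cell markers were higher in TG, and their sums overlapped, at 22172.5 to 47251.8 CPM in TG and 18335.6 to 26923.4 CPM in WT. The 6 lymphoid markers, 1 higher and 2 lower among those tested, summed to 4.83 to 7.62 CPM in TG and 8.74 to 10.3 CPM in WT. The 5 Schwann-cell markers, of which 3 were higher and 1 lower among those tested, summed to 16.15 to 20.9 CPM in TG and 11.5 to 16.11 CPM in WT. The 8 duct markers summed to 2014 CPM in TG 1, 1492 in TG 2 and 1587 in TG 3, against 1041 in WT 1, 762 in WT 2 and 689 in WT 3. All 7 of those tested were higher in TG, and the sums did not overlap. The 5 delta- and PP-cell markers, all higher in TG, summed to 26268 CPM in TG 1, 13229 in TG 2 and 36362 in TG 3, against 8389 in WT 1, 9567 in WT 2 and 8358 in WT 3. The 8 stellate-cell and fibroblast markers, 6 higher and 2 lower, summed to 172 CPM in TG 1, 32.03 in TG 2 and 134 in TG 3, against 24.1 in WT 1, 62.1 in WT 2 and 76.0 in WT 3, with TG 2 within the WT range. None of these markers was at 0 in all libraries, and their part in the values of Gpx3, Gpx7, Prdx4 and Txnip was not tested.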

How the data were processed

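Islet RNA (3 µg per sample) was made into libraries with a NEBNext kit, per the labels' protocols. The submitters' processing notes name CASAVA 1.8, HISAT2, GRCm38 and mm10. The counter, its strand setting and the annotation version are not stated. The deposited counts were whole numbers per gene. The deposited normalized signal was the count times a factor per library (within 5% of it for 90.9% to 100% of genes), and the authors' FPKM were that signal per gene length; both were made separately for the 2 tables and served for description. Counts were joined on gene ID and tested with edgeR 4.0.16 under R 4.3.3, using filterByExpr, TMM and a quasi-likelihood F-test with terms for table and genotype. Of 29725 genes with a count, 16072 were tested. SE is the absolute log2 fold change over the square root of F, and differences within a table are of log2 CPM with a prior count of 2. DESeq2 1.42.0, limma 3.58.1 and other filters, covariates and left-out libraries were alternatives. The edgeR step was tested on simulated data. The closest pair of libraries, TG 2 and WT 1, differed beyond sampling noise (chi-square of 31.6 per degree of freedom). By the same measure WT 1 and WT 2 stood at 42.4, TG 2 and TG 1 at 335, and TG 2 and TG 3 at 407. Why TG 2 lay nearer to WT than to the other TG libraries was not tested.

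The members and gene lists were chosen with earlier results of these data known. Values in every library were given for members with an unadjusted p under 0.05 in edgeR, members whose TG libraries all lay on 1 side of the WT libraries of their table, the 5 members with the highest mean FPKM, and Nfe2l2, Keap1, Nqo1, Hmox1, Gclc, Gclm, Txnip and Slc7a11. Values of Prdx3 and Cat, and the bias-adjusted test without a filter on low counts, were added after seeing the data. Of each other list, the 3 genes with the smallest p were named.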

Additional observations from a re-analysis of the deposited data

Results flagged for a closer look

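For 3 members, TG 1 and TG 2 both lay below WT 1 and WT 2 in the first table, while TG 3 lay above WT 3 in the second. The difference in log2 CPM, TG minus WT, was -0.10 in the first table and 0.18 in the second for Gclm, -0.15 and 0.06 for Txnrd1, and -0.41 and 0.19 for G6pdx. The second table has a single library per genotype, and table cannot be told apart from the apparent sex of the mice. The test of the difference itself gave an adjusted p of 0.9999 for each of the 3 (edgeR interaction of table and genotype).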

How the results depend on the processing

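Over 15 alternatives the 480 recomputed log2 fold changes of members kept their direction and side of the threshold in 435 cases, passed it anew in 16 and turned sign in 29, in 13 members whose value with all libraries was 0.31 or smaller in size. The other 19 members never turned. With each library left out in turn, the count of genes past the threshold ranged from 0 to 2188, of members past it from 0 to 7, and of members outside the WT libraries of their table from 13 to 18, beside 10 with all libraries. With fewer libraries to compare, this last measure is met more easily, so a rise in its count is built in. The share of all genes outside moved too, to between 33.0% and 59.9% beside 26.4%. Without TG 2 the members (50%) lay below it (59.9%). In the other refits they lay above it, for example 43.75% beside 42.4% without WT 1 and 56.25% beside 40.4% without TG 1. Every call in these refits came without TG 2. The lists ranged from 0 to 5 of 27 genes (NRF2-linked), 0 to 3 of 26 (glutathione transfer) and 0 to 3 of 12 (NADPH). Oxidant producers ranged from 0 to 2 of 13, heme and iron from 0 to 7 of 15, and selenoproteins from 0 to 4 of 15. Without TG 2, 8.82% of all genes were called higher and 4.39% lower. Without the filter on low counts edgeR called 1672 of 29725 genes (4.37% higher and 1.25% lower) and 6 members. It called 4, 4, 2, 3, 5 and 3 genes of these lists in that order, and 1 member, Txnip, for the interaction. DESeq2 called 752 of 16072 genes (3.83% higher and 0.846% lower), 3 members, and 2, 2, 2, 1, 3 and 0 genes of the lists. The cause was not tested. In the first table alone Sod1 was -0.0459, Gpx2 -0.0200 and Prdx2 -0.0524; with an acinar covariate Sod1 was -0.0590 and Prdx2 -0.0022; with limma-voom Gpx2 was -0.0561. With each library left out, values ranged from -0.11 to 0.0520 for Gclm, -0.0628 to 0.29 for Txn1, -0.0509 to 0.14 for Sod1, -0.35 to 0.0222 for Sod2, -0.60 to 0.21 for Sod3, -0.54 to 0.0011 for Cat, -0.50 to 0.50 for Gpx2, -0.33 to 0.0406 for Gpx4, -0.31 to 0.50 for Gpx8, -0.0574 to 0.17 for Prdx2, -0.26 to 0.0133 for Prdx6, -0.39 to 0.0041 for G6pdx and -0.18 to 0.15 for Nfe2l2. No paired analysis was possible because the labels give no shared replicate numbers. Fewer than 100 counts in at least 1 library limit the precision of Sod3, Gpx7 and Gpx8, and counting error is only part of the spread.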

Other observations

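Of 13 NADPH oxidase and other oxidant-producing genes tested, 8 were higher and 5 lower in TG, 0 passed in edgeR and 1, lower in TG, had an unadjusted p under 0.05 (7.69%, beside 4.81% of all genes). That was Ero1lb, the form of the oxidase of the endoplasmic reticulum that is abundant in beta cells. Ero1lb had 229 CPM in TG 1, 722 in TG 2 and 255 in TG 3, against 1189 in WT 1, 1008 in WT 2 and 763 in WT 3. Every TG library was below every WT library, and the log2 fold change was -1.33 (SE 0.40), with an adjusted p of 0.248 in edgeR and 0.0199 in DESeq2. Of the members named above for the same compartment, Prdx4 and Gpx7 were higher in TG, with an adjusted p of 0.199 and 0.282 in edgeR. Gpx8 had a log2 fold change of 0.14 (SE 0.44), and its sign turned under some alternatives. A link between these genes was not tested. Maob, a mitochondrial amine oxidase, had 47.2 CPM in TG 1, 251 in TG 2 and 46.9 in TG 3, against 320.4 in WT 1, 284 in WT 2 and 171 in WT 3, with a log2 fold change of -1.30 (SE 0.56). Nos2, the inducible nitric oxide synthase, had one of -1.62 (SE 0.70) and was highest in WT 1, at 24.1 CPM. TG 1 and TG 3, lowest for Ero1lb and Maob, were also the libraries with the lowest summed beta-cell markers. The part of cell composition in the Ero1lb and Maob values was not tested.

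Of 15 selenoproteins and genes of their synthesis, 5 were higher and 10 lower in TG, and 0 passed in edgeR. An unadjusted p under 0.05 was reached by 1 higher (6.67%, beside 9.32% of all genes) and 1 lower (6.67%, beside 4.81%). Sepp1, the secreted selenium carrier, had 959 CPM in TG 1, 401 in TG 2 and 1169.9 in TG 3, against 443 in WT 1, 536 in WT 2 and 259 in WT 3, and TG 2 lay within the WT range. The log2 fold change was 1.03 (SE 0.46) for Sepp1, -0.57 (SE 0.21) for Sepw1 and 0.69 (SE 0.25) for Sepn1.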
